A study of Mus musculus with 24 samples.

Results

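The erythroid and megakaryocyte transcription factor genes followed here were Gata1, Gata2, Klf1, Nfe2, Tal1, Lmo2, Fli1, Zfpm1, Gfi1b and Runx1, 10 of the 30339 gene names on the arrays. They were chosen by name, as genes for nuclear factors known to set the erythroid and megakaryocyte programmes, and were read from every probe that was not a control and carried the gene's name. That gave 12 probes, 1 each for 8 members and 2 each for Runx1 and Zfpm1. All 12 were well above background on all 24 arrays, and all 10 members passed the filter on dim probes.

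The cells were DA1-3B, a mouse leukaemia line of the strain labelled C3H eOuJ that carries Bcr-ABL. They were given plasmids that encode p65/RelA, one of the proteins of the NF-kB transcription factor family, and RNA was measured on one-colour Agilent arrays, 4 in each of 6 groups. VOID received the empty plasmid, and WT received full-length p65. D361E received p65 with glutamate in place of aspartate at the residue where the N-terminal fragment ends. The group p1-361 received that N-terminal fragment, p363-549 received the C-terminal fragment, and p1-361+p363-549, called both fragments below, received the 2 together. The treatment protocol and the sample names place the first residue of the C-terminal fragment 1 position apart. All groups share the parent line and its Bcr-ABL, and the comparisons with VOID share the same 4 VOID arrays. Whether samples of 1 group came from separate cultures is not stated in the labels, nor how much p65 protein each plasmid gave. Every p-value therefore reflects only how these samples vary, and that variation may be technical.

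GATA factors bind elements with the letters GATA and, with TAL1, LMO2 and their partners, form complexes on the enhancers of red cell and platelet genes. GATA2 acts in stem and progenitor cells and in mast cells, and gives way to GATA1 as red cells and megakaryocytes mature. KLF1 binds CACCC boxes, among them that of the adult beta-globin promoter, and is needed for red cell maturation. FLI1 and RUNX1 serve megakaryocytes, and GFI1B is a repressor needed in both lineages.

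Promoter sequence was set beside the factors because several of them are known to bind these elements. The letters searched were GATA with A or T just before and A or G just after, for GATA factors, and CACCC for KLF1, each on both strands. These searches covered the 250 bases before the annotated start, in RefSeq windows of GRCm38.p6. Windows were found for 7 of the 10 members, some with more than 1 start, 10 windows in all. Of the 7 members, 3 had a GATA match and 7 a CACCC match in at least 1 window. Counted by window, 3 of the 10 held a GATA match and 7 of the 10 a CACCC match. Over the 32851 windows in the table, 26.5% held a GATA match and 52% a CACCC match, so these shares describe the windows and show no binding. Klf1 is printed as the member whose level differed most firmly, Gfi1b as the one with the widest range, and Gata1 as the factor that the GATA letters belong to. Hbb-bs, an adult beta-globin gene, is printed as a known target of Klf1. Sequences run 5′ to 3′ on the gene's strand, and capitals mark the matches, in either orientation. Klf1 lies at chr8:84901732-84901981 (plus strand) and Gata1 at chrX:7967911-7968160 (minus strand). Gfi1b lies at chr2:28621983-28622232 (minus strand) and Hbb-bs at chr7:103827929-103828178 (minus strand).
Klf1: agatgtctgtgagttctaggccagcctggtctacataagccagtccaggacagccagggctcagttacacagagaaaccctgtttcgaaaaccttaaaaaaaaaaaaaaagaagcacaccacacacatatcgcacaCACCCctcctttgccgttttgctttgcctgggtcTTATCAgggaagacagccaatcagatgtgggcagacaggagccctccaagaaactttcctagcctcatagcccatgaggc
Gata1: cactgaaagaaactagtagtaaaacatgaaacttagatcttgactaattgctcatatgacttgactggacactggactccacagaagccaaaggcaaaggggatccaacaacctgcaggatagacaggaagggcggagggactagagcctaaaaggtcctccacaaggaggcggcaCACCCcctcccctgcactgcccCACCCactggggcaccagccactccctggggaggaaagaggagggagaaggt
Gfi1b: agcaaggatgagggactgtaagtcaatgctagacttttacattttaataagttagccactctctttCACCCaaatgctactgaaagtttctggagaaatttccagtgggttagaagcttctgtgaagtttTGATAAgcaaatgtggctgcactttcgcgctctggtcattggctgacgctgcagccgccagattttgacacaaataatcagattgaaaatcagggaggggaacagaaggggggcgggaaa
Hbb-bs: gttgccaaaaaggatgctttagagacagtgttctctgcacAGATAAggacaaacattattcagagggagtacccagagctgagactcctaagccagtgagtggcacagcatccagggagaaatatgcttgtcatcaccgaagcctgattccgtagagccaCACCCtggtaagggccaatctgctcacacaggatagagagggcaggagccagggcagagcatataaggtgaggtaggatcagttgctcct
In Klf1 the GATA match, TGATAA read on the opposite strand, lay 80 to 75 bases before the start, and the CACCC match 114 to 110 bases before it. Hbb-bs held its CACCC letters 90 to 86 bases before the start. Gfi1b had TGATAA 120 to 115 bases before the start, and the Gata1 window held 2 CACCC matches and no GATA match.

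Levels below are log2 processed signal minus the array's own 75th percentile, so 0 is the 75th percentile of that array and a difference of 1 is a doubling. Since probes differ in brightness, levels were compared between groups for 1 probe and not between genes. Of the 24 arrays, 21 resembled their own group most, over the 200 genes that separated the groups best on the other arrays, with a Pearson r of 0.52 to 0.95 across those genes. The other 3 were the replicate 4 arrays of the fragment groups, where p1-361 replicate 4 was closest to p363-549 (r 0.78, own group 0.14), p363-549 replicate 4 to both fragments (r 0.97, own group -0.55) and both-fragment replicate 4 to p1-361 (r 0.71, own group -0.09). By this measure the 3 arrays went against their labels in a closed cycle, from p1-361 to p363-549 to both fragments and back to p1-361. Whether their labels were exchanged was not tested, and the means, SDs and calls of the fragment groups below include them as labelled unless said otherwise. Genes are not independent replicates, so these r values describe the arrays. Some member results that rest on these 3 arrays are given with and without them. Other results, among them those of genes outside the members, are given only with these arrays as labelled. Rela, the transfected gene, had a mean of 4.38 in VOID and of 4.74 to 4.87 in the other groups. Its array values in VOID, 4.24 to 4.49, lay below all those of the other groups. The Rela difference from VOID was not called in WT (0.4, limma adjusted p = 0.0793) or D361E (0.36, limma adjusted p = 0.128). It was called in p1-361 (0.43, limma adjusted p = 0.0406), p363-549 (0.49, limma adjusted p = 0.0161) and both fragments (0.47, limma adjusted p = 0.00624). What the Rela probe reads of each insert was not tested. Of 8 marker genes of the labelled blood cell line, Ptprc, Spn, Il3ra, Csf2rb, Csf2rb2, Bcr and Abl1 were well above background on all 24 arrays and Cd34 on 1. Of 6 B cell genes, Cd79b was well above background on all 24 arrays, Pax5 on 2 and the other 4, among them Cd79a, Ms4a1 and Ebf1, on 0. Of 7 T cell genes, Cd3d, Cd3e, Cd4 and Lck were on all 24, Cd3g on 12, and Cd8a and Thy1 on 0.

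Among the 10 factors, Klf1 was the one gene called in the moderated F test that limma gives over the 6 groups (F adjusted p = 0.0276), where 2.82% of the 15050 genes tested were called. Klf1 was highest with the empty plasmid and lowest with both fragments, 1.29 ± 0.24 (SE, n = 4 against 4) lower on the log2 scale, a 2.45-fold difference. With the N-terminal fragment alone it was 2.12-fold lower. Gata1, Gata2, Tal1, Lmo2, Nfe2, Fli1, Zfpm1, Gfi1b and Runx1 did not pass that test, with F adjusted p from 0.361 (Tal1) to 0.76 (Nfe2). The F test call of Klf1 was made in 27 of 38 alternative settings (adjusted p up to 0.155), and was lost without VOID replicate 2, 3 or 4, p1-361 replicate 1 or 2, or both-fragment replicate 1, 2 or 3.

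**Figure D1:**
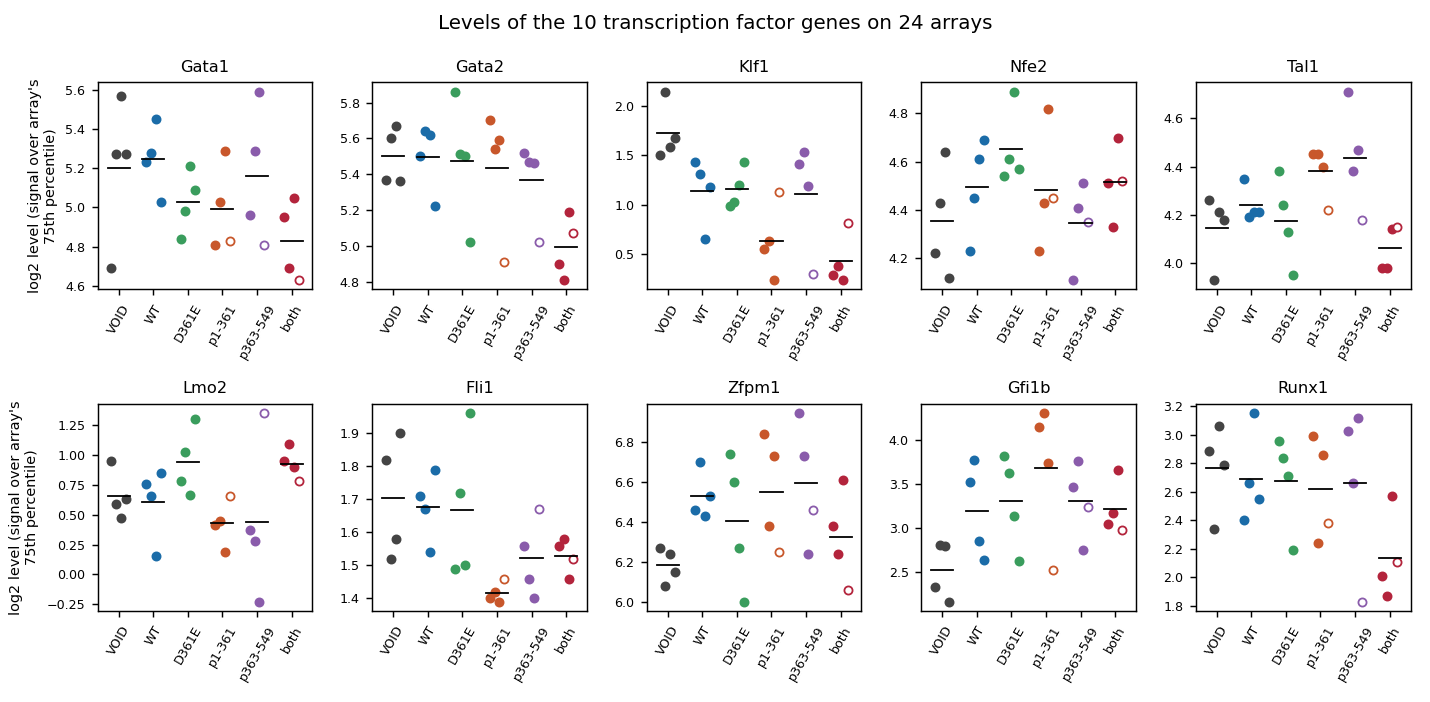
Log2 level of each of the 10 factor genes on the 24 arrays, by transfection group, with 1 point per array and a line at the group mean; the vertical scale differs between panels. Open points are the 3 fragment arrays that resembled another group most. For Klf1 the VOID arrays, 1.5 to 2.14, stand above all arrays of WT, D361E, p1-361 and both fragments, while most other panels show overlapping groups.

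Klf1, the erythroid Kruppel-like factor, was read by 1 probe at chr8:87428881-87428940 (mm9, plus strand). Its levels on the 4 VOID arrays were 1.5, 2.14, 1.58 and 1.67. WT arrays gave 1.43, 1.31, 0.65 and 1.18, and D361E arrays gave 0.99, 1.03, 1.2 and 1.43. Each of these groups lay wholly below VOID, although the highest WT and D361E arrays came within 0.1 of the lowest VOID array. On the p1-361 arrays the levels were 0.55, 0.63, 0.24 and 1.13, and on those with both fragments 0.29, 0.38, 0.24 and 0.82. The p363-549 arrays gave 1.41, 1.53, 1.19 and 0.3, where the second overlapped VOID and the last was one of the 3 arrays described above.

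In order, the Klf1 group means were 1.72 ± 0.29 (SD, n = 4) in VOID, 1.16 ± 0.2 in D361E, 1.14 ± 0.34 in WT, 1.11 ± 0.55 in p363-549, 0.64 ± 0.37 in p1-361 and 0.43 ± 0.27 with both fragments. Only the step from VOID to D361E separated neighbours without overlap. D361E, WT and p363-549 could not be ordered among themselves, nor could p1-361 and both fragments. D361E minus WT was 0.02 with a 95% interval of -0.49 to 0.53.

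Against VOID, Klf1 was lower by 1.09 ± 0.24 (SE) in p1-361 (limma adjusted p = 0.038). With both fragments it was lower by 1.29 ± 0.24 (limma adjusted p = 0.00318). These were the only calls among the 10 members in the 5 comparisons with VOID. WT differed from VOID by -0.58 (95% interval -1.09 to -0.07, adjusted p = 0.724), D361E by -0.56 (-1.07 to -0.05, adjusted p = 0.673) and p363-549 by -0.61 (-1.12 to -0.1, adjusted p = 0.545). All 3 intervals, which are not adjusted for the number of genes, lay below 0, and none of the 3 passed the test over all genes. An exact permutation test, 2-sided, gave p = 0.0286 for Klf1 in WT, D361E, p1-361 and both fragments against VOID. This is the smallest p that 4 against 4 arrays allow, and any 2 groups that do not overlap reach it. It therefore restates the lack of overlap and adds no evidence. For Klf1 in p363-549 the exact permutation test gave p = 0.0571. Against VOID, the exact permutation test also gave p = 0.0286 for Gata2 and Gfi1b with both fragments, Fli1 in p1-361 and Zfpm1 in WT.

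The both-fragment difference in Klf1 was called under all 39 alternative settings tried, at -1.5 to -1.15. The p1-361 difference kept its sign in all 39, at -1.25 to -0.94, but was called in only 22. It lost the call when any 1 of 12 of the 24 arrays was left out (adjusted p up to 0.197), and with slide as a fixed block (adjusted p = 0.131). The 12 were all 4 VOID arrays, p1-361 replicates 1, 2 and 3, WT replicates 2 and 4, D361E replicates 2 and 3, and both-fragment replicate 1. Without the 3 fragment arrays the Klf1 differences were -1.25 for p1-361 (adjusted p = 0.000541), -1.42 for both fragments (adjusted p = 3.7e-05) and -0.34 for p363-549 (adjusted p = 0.625). In that fit 2.66% of all genes were called for p1-361 and 9.57% for both fragments. Within the slides that held both groups, Klf1 differed from VOID by -1.43 and -1.86 with both fragments, by -1.04 and -0.36 in p1-361, by -0.4 and -0.18 in WT, by -0.55, -0.68 and -0.94 in D361E, and by -0.17, -1.84 and -0.3 in p363-549.

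**Figure D2:**
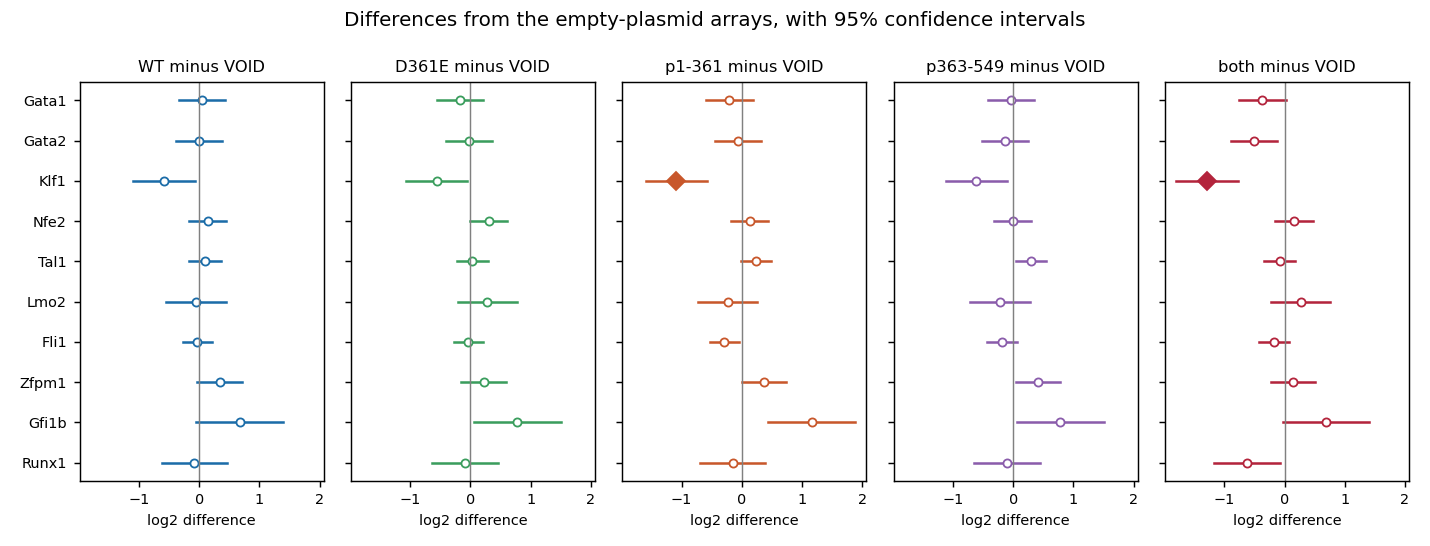
Log2 difference of each factor gene from VOID, 1 panel per construct, with 95% confidence intervals that are not adjusted for the number of genes; filled diamonds mark calls at an adjusted p under 0.05. Klf1 is the only filled marker, at -1.09 for p1-361 and -1.29 for both fragments, and the Gfi1b intervals are the widest, reaching 1.88.

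Counted over the members, 0 of 10 were called in WT minus VOID, where 0.485% of all genes were called, and 0 of 10 in D361E minus VOID, where 0.658% were. At an unadjusted limma p under 0.05 the counts were 1 (Klf1) and 2 (Klf1 and Gfi1b), against 5.66% and 6.28% of all genes. For p1-361, 1 of 10 was called against a background of 0.718%, and for both fragments 1 of 10 against 4.45%. Unadjusted p under 0.05 held for 3 members in p1-361 (Klf1, Gfi1b and Fli1) and 3 with both fragments (Klf1, Gata2 and Runx1), against 7.83% and 18.6% of all genes. For p363-549 it was 0 of 10 against 0.571%, with 4 members at an unadjusted p under 0.05 (Klf1, Tal1, Zfpm1 and Gfi1b) against 6.83% of all genes. The arrays of the groups did not overlap for 2 members in WT (4.77% of all genes), 1 in D361E (4.75%), 2 in p1-361 (4.74%), 0 in p363-549 (3.3%) and 3 with both fragments (10.1%). Median differences of the 10 members were 0.02, 0, -0.11, -0.07 and -0.13 in the same order, beside -0.04, -0.02, -0.01, 0.03 and -0.01 over all genes tested.

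Neither GATA factor gene was called. Gata1, the factor common to red cells, megakaryocytes and mast cells, had levels of 4.69, 5.27, 5.57 and 5.27 in VOID and of 4.95, 4.69, 5.05 and 4.63 with both fragments. These 2 groups overlapped, because VOID replicate 1 was low, and the difference was -0.37 (95% interval -0.76 to 0.02, limma adjusted p = 0.289). The other 4 constructs differed from VOID by -0.21 to 0.05 in Gata1, and over the 5 comparisons the intervals reached from -0.76 to 0.43. All neighbours in the order of its group means, 5.25 in WT down to 4.83 with both fragments, overlapped.

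Gata2, the progenitor and mast cell factor, stood at 5.37, 5.6, 5.67 and 5.36 in VOID and at 4.9, 4.81, 5.19 and 5.07 with both fragments. All 4 both-fragment arrays lay below all VOID arrays. The group means of the other 4 constructs, 5.37 to 5.49, were within 0.13 of the VOID mean of 5.5. Gata2 with both fragments differed from VOID by -0.51 ± 0.18 (SE) and from WT by -0.5 ± 0.18, without overlap in either, and neither passed the test over all genes (limma adjusted p = 0.131 and 0.25). Without the 3 fragment arrays the differences were -0.53 (adjusted p = 0.0493) and -0.53 (adjusted p = 0.0735), and over the 39 alternatives the first was called in 3. In those 3 settings 9.57%, 16.1% and 35.5% of all genes were called for both fragments against VOID, beside 4.45% in the fit over all arrays. In p363-549 the Gata2 levels were 5.52, 5.47, 5.46 and 5.02, the last from the array that resembled both fragments.

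Zfpm1 encodes FOG-1, the zinc finger protein that binds the N-terminal finger of GATA1. Its 2 probes overlap on chr8 (mm9, 124861087 to 124861151) and are not independent, with r of 0.941 over the 24 arrays. On the brighter probe VOID gave 6.27, 6.08, 6.24 and 6.15 and WT gave 6.46, 6.7, 6.43 and 6.53. The WT arrays were all higher, by 0.34 ± 0.18 (SE) on average, which did not pass the test (limma adjusted p = 0.948). Means in the other groups were 6.32 to 6.59, and every group mean lay above that of VOID, 6.19, while all neighbours in the order overlapped. On the dimmer probe VOID and WT overlapped, with VOID replicate 1 at 6.38 and WT replicate 3 at 6.35.

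Of the TAL1 complex, Tal1, the basic helix-loop-helix factor, had group means from 4.06 ± 0.09 (SD) with both fragments to 4.44 ± 0.22 in p363-549. The p1-361 arrays were at 4.45, 4.45, 4.4 and 4.22, the p363-549 arrays at 4.71, 4.38, 4.47 and 4.18, and the both-fragment arrays at 3.98, 3.98, 4.14 and 4.15. Each fragment alone thus had a mean above the VOID mean of 4.14, by 0.24 and 0.29, and both together a mean 0.08 below it, with no call in any of the 3 (adjusted p = 0.699, 0.616 and 0.746). The additivity term for Tal1, both fragments minus VOID less the separate differences of each fragment, was -0.61 ± 0.17 (SE, limma adjusted p = 0.207).

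Lmo2, the LIM-only bridge between TAL1 and GATA factors, showed the opposite arrangement, with means of 0.66 ± 0.21 (SD) in VOID, 0.43 ± 0.19 in p1-361, 0.44 ± 0.66 in p363-549 and 0.93 ± 0.13 with both fragments. The wide spread in p363-549 came from levels of 0.37, 0.28, -0.23 and 1.35, the last on replicate 4. Its additivity term was 0.72 ± 0.34 (limma adjusted p = 0.338).

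Over the 10 members, 0 passed the additivity test, where 0.213% of all genes were called, and 4 (Tal1, Lmo2, Zfpm1 and Gfi1b) had an unadjusted limma p under 0.05, against 14.3% of all genes. Without the 3 fragment arrays, 3 passed: Tal1 at -0.78 (adjusted p = 0.0117), Lmo2 at 1.15 (adjusted p = 0.0162) and Gfi1b at -1.57 (adjusted p = 0.0395). In that fit 10.6% of all genes passed, so that setting raised the calls across the whole array as well. Leaving out p363-549 replicate 4 alone called Tal1 and Lmo2, and 2.4% of all genes were called in that fit.

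Gfi1b, the growth factor independence repressor, had the widest range of the members, from 2.16 to 4.3. Its VOID arrays were at 2.33, 2.81, 2.79 and 2.16, the lowest group. The p1-361 arrays gave 4.15, 4.3, 3.74 and 2.52, and both fragments gave 3.04, 3.17, 3.66 and 2.97. Here 3 of the 4 p1-361 arrays, and all 4 with both fragments, were above every VOID array, and the exception was p1-361 replicate 4.

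All 5 Gfi1b differences from VOID were positive, at 0.67 in WT, 0.78 in D361E, 1.16 in p1-361, 0.78 in p363-549 and 0.69 with both fragments, each ± 0.35 (SE). None passed the test, with limma adjusted p from 0.174 to 0.94, and the group SDs, 0.31 to 0.81, were large beside them. Without the 3 fragment arrays the p1-361 difference was 1.54 (adjusted p = 0.00996), and leaving out p1-361 replicate 4 alone also gave a call. Over the 39 alternatives p1-361 was called in 4, while both fragments, at 0.54 to 0.79, were called in 0. In those 4 settings 1.14% to 4.46% of all genes were called for p1-361 against VOID, beside 0.718% in the fit over all arrays. The 5 comparisons share the VOID arrays, so their signs are not independent of each other.

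**Figure D3:**
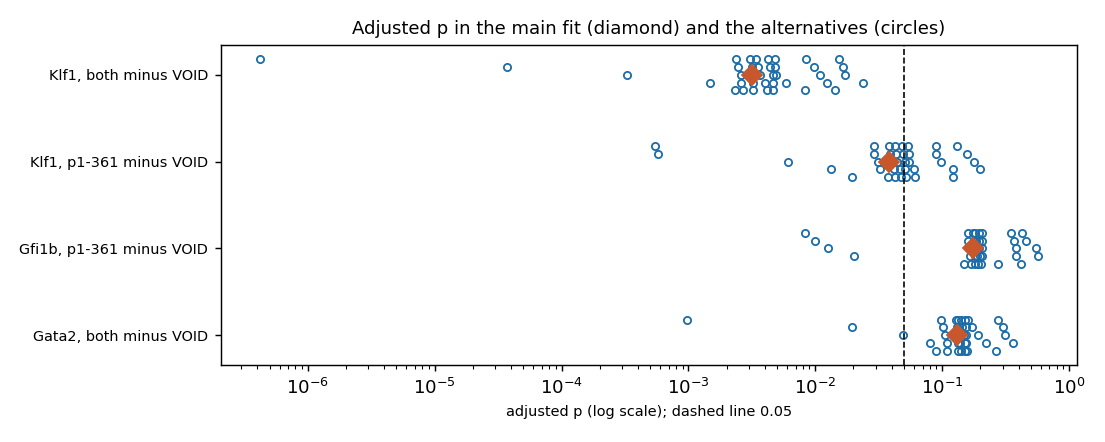
Adjusted p (log axis) of 4 differences from VOID under the main fit (diamond) and 39 alternative settings (circles), with the dashed line at 0.05. All circles for Klf1 with both fragments lie left of the line, those for Klf1 in p1-361 straddle it with 22 to the left, and Gfi1b in p1-361 and Gata2 with both fragments have 4 and 3 to the left.

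The 3 factors best known from megakaryocytes, Fli1, Runx1 and Nfe2, were not called in the fit over all arrays. Fli1, an ETS factor, had levels of 1.82, 1.52, 1.58 and 1.9 in VOID and of 1.4, 1.42, 1.39 and 1.46 in p1-361. The p1-361 arrays were the lowest and tightest group (SD 0.03) and lay below all VOID and all WT arrays. That difference, -0.29 ± 0.12 (SE) against VOID and -0.26 ± 0.12 against WT, did not pass the test (limma adjusted p = 0.494 and 1).

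Runx1, the core-binding factor subunit, had levels of 2.89, 2.34, 3.06 and 2.79 in VOID and of 2.01, 1.87, 2.57 and 2.11 with both fragments on its brighter probe. Those groups overlapped because VOID replicate 2 was low and both-fragment replicate 3 was high, and the difference was -0.63 ± 0.26 (SE, limma adjusted p = 0.199). That difference was called in 2 of the 39 alternatives. These were array weights and a block for the 4 runs of 6 consecutive title numbers (the latter at limma adjusted p = 0.0419). In these 2 settings 35.5% and 16.1% of all genes were called, against 4.45% in the fit over all arrays. Within the 4 runs the Runx1 difference was -0.88, -0.47, -0.48 and -0.68. Its dimmer probe, elsewhere on chr16 and with r of 0.704 to the first, gave -0.66 ± 0.32 (adjusted p over all probes = 0.28). Over all arrays the 2 probes differed in sign for the other 4 constructs, at -0.15 to -0.08 on the brighter and 0.14 to 0.26 on the dimmer one. Without the 3 fragment arrays the brighter probe gave 0.17 in p363-549 and -0.07 in p1-361.

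Nfe2, the p45 subunit of NF-E2, which drives platelet release, had group means of 4.34 in p363-549 to 4.65 in D361E. All neighbours overlapped, and its differences from VOID ran from -0.01 to 0.3 with intervals between -0.32 and 0.61. Changes in Nfe2 larger than 0.61 on the log2 scale thus lay outside these intervals.

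Set against full-length p65 in place of the empty plasmid, 0 of 10 members were called for D361E (0.0797% of all genes), p1-361 (0.126%), p363-549 (0.146%) or both fragments (1.06%), by limma. At an unadjusted p under 0.05 the counts were 0, 1, 0 and 4, the last being Gata1, Gata2, Klf1 and Runx1, against 3.07%, 3.02%, 5.2% and 12.6% of all genes. With both fragments, Gata2 and Tal1 did not overlap WT (7.47% of all genes did not), and in p1-361 Fli1 did not (2.79%), and for D361E (3.61%) and p363-549 (3.75%) 0 members were separate. Klf1 with both fragments differed from WT by -0.71 ± 0.24 (SE, adjusted p = 0.211), and without the 3 fragment arrays by -0.84 (adjusted p = 0.0101). In the fit without those arrays 5.55% of all genes were called for both fragments against WT.

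Over the 24 arrays the gene whose levels followed Klf1 most closely was Tuba4a, an alpha-tubulin gene, with a Pearson r of 0.936 among 15011 genes. Fcer1a, the alpha chain of the high-affinity IgE receptor, had r of 0.902 and the predicted gene Gm10639 had r of 0.898. Fcer1a was well above background on 15 of the 24 arrays and Gm10639 on 8, so their r includes values near background. These arrays share groups and slides, so r describes them and carries no p. Tuba4a differed from VOID by -0.67 in p1-361 (limma adjusted p = 0.0497) and, with both fragments, by -0.9 (limma adjusted p = 0.00166), with -0.41 to -0.34 in the other 3 groups. Because Tuba4a was picked for its likeness to Klf1 on these same arrays, these differences are not independent of that choice.

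Red cell genes include known targets of these factors. Of 25 erythroid effector genes tested, 8 differed in the F test, against 2.82% of all genes. Of the 8, 7 were globin genes and the other was Gypc, a membrane glycophorin, higher with both fragments by 0.65 (limma adjusted p = 0.0133). Hbb-y, an embryonic beta-like globin, fell in all 5 comparisons with VOID, with differences of -4.98 in WT, -3.09 in D361E, -3.08 in p1-361, -2.54 in p363-549 and -3.72 with both fragments. On p363-549 replicate 4 it was at -4.31, and on the other arrays of that group at -2.46 to -1.61. It was well above background on 2 of 4 WT arrays and on all 4 in every other group. Hbb-bs, whose promoter is printed above, differed from VOID by -6.2 in WT (limma adjusted p = 0.000521) and, with both fragments, by -6.37 (limma adjusted p = 0.000211), and was well above background on 3 and 2 of those 4 arrays. Its means were -4.68 in WT and -4.85 with both fragments, the lowest of the groups. Hbb-b2 differed by -5.91 in WT and -4.68 with both fragments, and Hbb-bt by -5.29 and -3.81, all called. The beta-globin copies are close in sequence, and signal of 1 copy on the probe of another was not tested.

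In WT, the group where Hbb-y was lowest (mean -5.04), Klf1 had a mean of 1.14 and Gata1 a mean of 5.25, the highest of its groups. With both fragments, where Klf1 was lowest, the Hbb-y mean was -3.78. The other 17 erythroid effector genes tested did not pass the F test, and the median difference of the 25 was -0.11 in WT and -0.13 with both fragments, beside -0.04 and -0.01 over all genes.

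**Figure D4:**
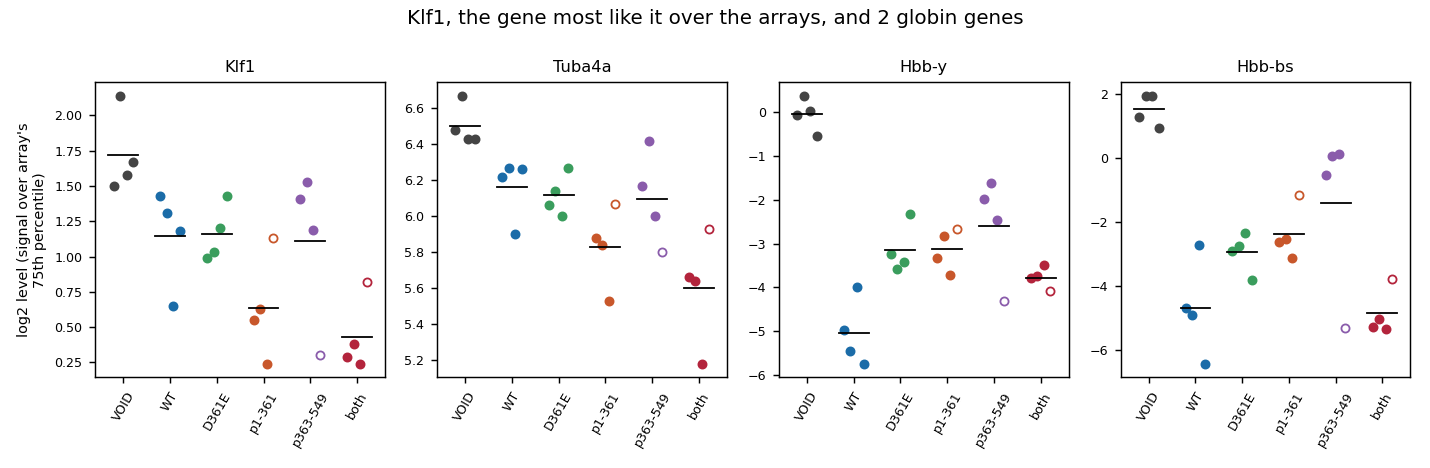
Log2 level on each array, by group, of Klf1, of Tuba4a, the gene with the highest correlation to it, and of the globin genes Hbb-y and Hbb-bs; lines are group means, open points are the 3 fragment arrays that resembled another group, and scales differ between panels. Klf1 and Tuba4a are lowest with both fragments (Klf1 mean 0.43), while Hbb-y is lowest in WT (mean -5.04).

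Among 20 partners and cofactors of the members, such as the LDB1, RUNX and repressor complex genes, 1 differed in the F test (2.82% of all genes). That was Erg, an ETS factor gene, higher with both fragments by 1.47 ± 0.41 (SE, limma adjusted p = 0.0425). Erg was well above background on 2 of 4 VOID arrays and on 4 of 4 with both fragments. It passed the filter on dim probes only through the both-fragment group, its highest, so its call is not independent of that filter. In the direct comparison of both fragments with VOID, 4 of the 20 were called, 3 higher and 1 lower, against 4.45% of all genes.

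Megakaryocyte and platelet genes did not move one way. Of 16 tested, 5 differed in the F test, against 2.82% of all genes. In the direct comparison of both fragments with VOID, 4 were called higher and 2 lower, against 4.45% of all genes. F13a1, the clotting factor XIII A chain, fell in all 5 comparisons with VOID, and the difference was -6.21 in WT and -4.74 in p1-361. Vwf, von Willebrand factor, was well above background on 4 VOID arrays and on 0 or 1 of 4 in the other groups. It passed the filter on dim probes only through VOID, its highest group, so its call is not independent of that filter. Gp1ba, a platelet adhesion receptor, was higher by 1.69 with both fragments (limma adjusted p = 0.00847).

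Genes of mast cells, which also depend on GATA1 and GATA2, differed in the F test for 4 of 9 tested, Fcer1a, Cpa3, Mcpt8 and Cma1. With both fragments all 4 were lower than VOID. The F test share over all genes was 2.82%. Mcpt8 passed the filter on dim probes only through VOID, and Fcer1a only through VOID and WT. In those groups each was highest, so these calls are not independent of the filter. Fcer1a was well above background on 4 VOID arrays and 0 of 4 with both fragments, and Cma1, a chymase, fell by 5.08 (limma adjusted p = 0.00373). The summed linear level of the 14 mast cell genes on the array ran from 43.3 to 75.6 in VOID and from 27.2 to 44.2 with both fragments. Bright probes weigh most in such a sum, so it does not describe the 14 genes alike. The brightest was Slc18a2, with means of 4.96 in VOID and 4.64 with both fragments, and it did not pass the F test (limma F adjusted p = 0.434). The part of mast cell genes in the Klf1 and Gata2 differences was not tested.

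Of genes marking other blood cells, 1 of 4 myeloid transcription factors (Cebpb, -0.93 with both fragments, limma adjusted p = 0.0271) and 3 of 8 monocyte and macrophage genes (Lyz1, Ly6c1 and Lyz2) differed in the F test. Over all genes 2.82% did. Ly6c1 passed the filter on dim probes only through D361E and both fragments, and Lyz2 only through WT and p1-361. Their means there lay above VOID, so these calls are not independent of the filter. Lyz1, a lysozyme, rose by 1.24 in WT and 1.78 in p1-361. For neutrophil, B cell and T cell genes the counts were 0 of 2, 0 of 1 and 0 of 5. In the direct comparison of both fragments with VOID, 1 of the 5 T cell genes was called, Cd3d, which was lower (-1.05, limma adjusted p = 0.0121). Csf2rb and Csf2rb2, receptor chains for interleukins and marks of the line, differed from VOID by -1.13 and -1.28 with both fragments (limma adjusted p = 0.00236 and 0.00144). In these bulk samples, fewer cells with a transcript and less of it per cell cannot be told apart.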

How the data were processed

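RNA of 24 samples was hybridised in one colour, 4 arrays to each of 6 slides, each slide holding more than 1 group. Per the file headers, scans were processed by the authors in Agilent Feature Extraction 10.7.3.1 with an mm9 design. What they deposited is the processed intensity of each spot, a linear value after background subtraction, with no scaling between arrays. From the authors' deposited intensity, log2 was taken here and reduced by the array's 75th percentile over the 43020 spots that are not controls. Between 185 and 312 spots per array marked as outliers were left out, and the lowest and highest 75th percentiles were 635.76 and 1213.6. The number of arrays limits the precision.

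A probe was kept if some group had it well above background in all 4 replicates (19516 probes), and each of 15050 genes was represented by its brightest probe. In limma 3.58.1 (R 4.3.3), group means of the 24 arrays were fitted jointly, with 10 comparisons and an F test, 2-sided. A call is a Benjamini-Hochberg adjusted p under 0.05 over all genes. Tested on simulated data for WT minus VOID (15050 genes), the fit recovered 58 of 100 changes of size 1 and 95 of 100 of size 2 (log2), with 8 false calls. Replicate numbers follow sample order, so each number marks 1 run of 6 consecutive title numbers with 1 array of every group. Whether the arrays of a run belong together is not stated in the labels, and the fit over all arrays did not pair them. Results with a block for these runs are given below. All members are named. Of each gene list up to 4 genes passing the F test are named with values, and for Klf1 the 3 genes most like it. Some genes that the naming rule picks are not reported here. Genes named for other reasons were chosen after their values were seen. The members and lists were chosen with earlier results of these data known.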

Additional observations from a re-analysis of the deposited data

Results flagged for a closer look

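Over 60 sets of 4 arrays (10 members in 6 groups), 2 held an array whose gap to the nearest other array took up more of the group's range than Dixon's critical value for 4 samples allows. Chance marks about 1 in 20 such sets. Gata2 on p363-549 replicate 4 was 5.02, where the other 3 arrays were at 5.46 to 5.52 (gap share 0.88). That array had its highest correlation with the both-fragment mean (r 0.97), and the both-fragment mean of Gata2 was 4.99. Tal1 on WT replicate 1 was 4.35, where the others were at 4.19 to 4.21 (gap share 0.875), and WT replicate 1 resembled its own group (r 0.86).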

How the results depend on the processing

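Values were recomputed under 39 alternatives, 24 of which left out 1 array. The Klf1 differences called in the main fit kept their sign in all 39. With normexp background correction, with no filter on dim probes, and with slide as a fixed block, 0 members were called both in p1-361 minus VOID and in the F test. In that order, 0.166%, 0.241% and 0.472% of all genes were called in p1-361 minus VOID and 0.91%, 1.09% and 2.02% in the F test. With only probes above background on all 24 arrays, or only the arrays compared, 0 were called in p1-361 minus VOID, against 0.326% and 0.658% of all genes. The both-fragment call of Klf1 was made in all of these. With a block for the 4 runs of 6 consecutive numbers in the sample titles, 2 members were called in p1-361 minus VOID (Gfi1b, Klf1), 3 with both fragments (Gata2, Klf1, Runx1), 1 against WT with both fragments (Gata2) and 1 in additivity (Tal1), against 2.99%, 16.1%, 7.38% and 5.5% of all genes. Without the 3 fragment arrays the counts were 2, 2 (Gata2, Klf1), 1 and 3 in the same order, and 2 in the F test (Klf1, Lmo2), against 2.66%, 9.57%, 5.55%, 10.6% and 9.86% of all genes. Array weights gave 3 calls in WT, 2 in D361E, 2 in p1-361 and 4 with both fragments against VOID, 1 in p1-361 and 8 with both fragments against WT, 6 in additivity and 7 in the F test, against 9.9%, 8.52%, 4.46%, 35.5%, 2.41%, 53.2%, 38.5% and 56.7% of all genes in that order. With 1 array left out, calls ran from 0 to 2 in p1-361 minus VOID, from 0 to 1 in the F test and from 0 to 2 in additivity. Where the first 2 of these had 0 calls, 0.346% to 0.611% and 1.68% to 2.37% of all genes were called. The 2 calls in p1-361 minus VOID stood beside 1.14% of all genes, and the 2 in additivity beside 2.4%. The cause of these shifts was not tested. The number of arrays limits the precision.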
